A study of Mus musculus with 2 samples.

Results

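The matrix metalloproteases (MMPs), the ADAMTS proteases, the ADAMTS-like proteins and the tissue inhibitors of metalloproteases (TIMPs) were examined in single-cell RNA libraries of mouse quadriceps and diaphragm. Members were all genes whose symbol was Mmp, Timp, Adamts or Adamtsl followed by a number, with a letter allowed after the number of an Mmp. This gave 51 of the 27998 genes in the files, namely 23 MMPs, 19 ADAMTS proteases, 5 ADAMTS-like genes and 4 TIMPs. The quadriceps is a limb muscle and the diaphragm the respiratory muscle, and both were taken from C57BL/6J mice, for which the labels name no treatment. The muscles were minced and incubated with collagenase B and dispase II, and the viable mononuclear cells were sorted by light scatter alone. The experiment used 10 mice, the cells of several animals were combined for each muscle, and 1 library was made per muscle. Muscle fibres are lost in this preparation, so the data describe the cells between the fibres. Tissue, pool of animals and library cannot be told apart, and no test across samples was possible.

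These proteins set how the extracellular matrix is cut and held. MMPs are zinc enzymes that cleave collagens and other matrix proteins, either after secretion (Mmp2, a gelatinase) or while held in the cell membrane (Mmp14, which can activate the precursor of Mmp2). ADAMTS proteases are secreted zinc enzymes with thrombospondin repeats. Adamts1, Adamts4 and Adamts5 cut proteoglycans such as versican and aggrecan, and Adamts2, Adamts3 and Adamts14 remove the amino-terminal propeptide of procollagens. ADAMTS-like proteins share the repeats but lack the protease domain, and several of them bind fibrillin microfibrils. The TIMPs block the zinc site of the enzymes, and Timp3 also binds to the matrix and inhibits several ADAMTS proteases.

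The zinc site is what separates the proteases from the other members, so its coding sequence is shown first. The letters of a zinc site, in which 3 histidine codons hold the metal, were found in the coding sequence of 22 of 23 MMPs and 19 of 19 ADAMTS proteases, and in 0 of 5 ADAMTS-like genes and 0 of 4 TIMPs (GENCODE M21 transcripts on GRCm38). The 33 bases from the first to the last of these codons are printed 5′ to 3′ for 6 proteases described below, with the histidine codons in capitals.
Mmp2: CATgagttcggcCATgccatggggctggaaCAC
Mmp14: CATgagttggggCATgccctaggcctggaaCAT
Mmp23: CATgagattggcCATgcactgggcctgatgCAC
Mmp3: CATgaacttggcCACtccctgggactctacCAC
Adamts1: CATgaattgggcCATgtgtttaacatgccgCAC
Adamts5: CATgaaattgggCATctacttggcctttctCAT
The site of Mmp2 lies in coding exon 8 at chr8:92839279-92839311 on the plus strand, that of Mmp14 in exon 5 at chr14:54437627-54437659 on the plus strand, and that of Mmp23 in exon 5 at chr4:155651528-155651560 on the minus strand. The site of Mmp3 lies in exon 5 at chr9:7449775-7449807 on the plus strand. In both ADAMTS genes an intron splits the site. For Adamts1 it spans exon 3 (chr16:85799536-85799545) and exon 4 (chr16:85799191-85799213), and for Adamts5 exon 2 (chr16:85887817-85887826) and exon 3 (chr16:85878015-85878037), all on the minus strand. Mmp2 and Mmp14 shared 27 of the 33 bases, and Mmp2 and Mmp3 shared 23.

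Several MMPs are textbook targets of the Fos and Jun factors, whose genes differed widely between the libraries, so promoters were also read. RefSeq promoters on GRCm38.p6 (250 bases before to 50 after each start) were matched by symbol for 36 of the 51 members. The AP-1 letters TGANTCA, searched on both strands, were in the promoters of 8 of these 36 members and in 7.81% of all 32851 promoters. The 8 were Mmp1a, Mmp1b, Mmp3, Mmp7, Mmp10, Mmp12, Mmp13 and Mmp20, all in the cluster of 10 MMP genes on chromosome 9 (chr9:7272514-7699585). The N allows any base, so the pattern is wider than TGACTCA and TGAGTCA, in the members and in all promoters. The Mmp20 match was TGAATCA, and the other members had TGACTCA or TGAGTCA. Of these 8, only Mmp3 had any UMI in the cells kept. The CRE letters TGACGTCA were in 0 of the 36 members' promoters and in 1.79% of all promoters. The 250 bases before the start are printed for Mmp3, for Mmp13 as a cluster gene without a UMI, and for Adamts1, which differed between the muscles, with the AP-1 letters in capitals.
Mmp3: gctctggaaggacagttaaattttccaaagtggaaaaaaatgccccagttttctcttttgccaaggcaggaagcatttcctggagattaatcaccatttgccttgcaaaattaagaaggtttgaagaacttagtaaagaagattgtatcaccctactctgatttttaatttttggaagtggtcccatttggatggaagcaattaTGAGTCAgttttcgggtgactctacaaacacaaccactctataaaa
Mmp13: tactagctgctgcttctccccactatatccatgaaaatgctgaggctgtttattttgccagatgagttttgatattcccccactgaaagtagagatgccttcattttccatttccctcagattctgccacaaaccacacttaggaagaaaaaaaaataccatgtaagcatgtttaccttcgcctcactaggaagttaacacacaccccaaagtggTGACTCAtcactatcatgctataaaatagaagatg
Adamts1: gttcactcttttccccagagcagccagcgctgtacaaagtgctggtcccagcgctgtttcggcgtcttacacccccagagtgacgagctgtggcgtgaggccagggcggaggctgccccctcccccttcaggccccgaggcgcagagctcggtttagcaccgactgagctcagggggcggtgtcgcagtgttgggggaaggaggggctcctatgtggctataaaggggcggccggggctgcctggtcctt
They lie at chr9:7445572-7445821 (plus strand) for Mmp3, chr9:7272264-7272513 (plus strand) for Mmp13 and chr16:85803114-85803363 (minus strand) for Adamts1. The AP-1 letters began 46 bases before the start of Mmp3 and 35 bases before that of Mmp13, and the Adamts1 window held none.

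The quadriceps library held 5159 barcodes with 50854519 unique molecular identifiers (UMIs, each a counted RNA molecule) and the diaphragm library 2499 barcodes with 28545242 UMIs. Barcodes with at least 1000 UMIs were kept, 5010 and 2432. A cell was put in a class when at least 3 markers of that class had at least 2 UMIs each (at least 4 for tenocytes), and 5.69% of quadriceps and 2.92% of diaphragm barcodes met the rule for several classes and were left unnamed. Fibro-adipogenic progenitor-like (FAP-like) cells, the matrix-making stromal cells of muscle, numbered 2488 and 2085 and smooth muscle-like cells 1090 and 43. Quadriceps also held 190 B-like, 138 Schwann-like, 114 tenocyte-like, 103 T-like, 77 NK-like, 76 satellite-like, 50 macrophage or monocyte-like and 49 endothelial-like cells, the last led by Ccl21a and Mmrn1. Of the quadriceps smooth muscle-like cells 99.4% had over 5% mitochondrial UMIs, against 25.9% of FAP-like cells. The share was 90.8% in satellite-like, 85.5% in Schwann-like and 81.6% in endothelial-like cells. The endothelial-like cells had a median of 2624 UMIs, against 10294 in FAP-like cells. The libraries shared 5 barcodes. The summed level of 8 FAP markers was taken in the classes that are not stromal (at least 38 cells). It was between 0.47% and 4.32% of that in FAP-like cells of the same library, which was used as the size of free RNA. The class rule left out barcodes in which at least 3 of these markers had 2 UMIs, so this estimate can be too low. The source of levels above it was not tested. Levels are given in CPM, the UMIs of a gene per 1000000 UMIs of the class, with 95% exact Poisson intervals that cover counting error only. Molecules were counted at their 3′ ends, so transcript length does not enter a level.

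Of the 51 members, 44 had at least 1 UMI, and 28 reached 20 CPM in a class of at least 50 cells. The 7 without a UMI were Mmp1a, Mmp1b, Mmp7, Mmp10, Mmp12, Mmp13 and Mmp20, which include the collagenases Mmp1a and Mmp13 and the macrophage elastase Mmp12. All 7 lie in the chromosome 9 cluster, whose other genes Mmp3, Mmp27 and Mmp8 had 1089, 251 and 20 UMIs in quadriceps and 1112, 61 and 1 in diaphragm. A count of 0 in FAP-like cells allows a level of up to 0.117 CPM in each muscle. Of the MMPs with a UMI, Mmp21 had 1 UMI in diaphragm alone, Mmp24 had 1 in each library, and Mmp25 had 1 in quadriceps and 12 in diaphragm.

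FAP-like cells held 74.4% of the 199648 member UMIs in quadriceps and 94.1% of the 130829 in diaphragm. Of the UMIs of all genes, they held 25664090 of 50741165 in quadriceps and 25547361 of 28496994 in diaphragm. Smooth muscle-like cells held 14% and 0.836% of the member UMIs, and 14764176 and 476857 UMIs of all genes. Tenocyte-like cells held 2.76% and 0.759% of the member UMIs, and 1055401 and 248189 UMIs of all genes. In quadriceps, 35 members had at least 20 UMIs and could be ranked over the 9 classes of at least 50 cells. FAP-like cells had the highest level for 12 of these 35, while 11.4% of the 14038 genes ranked in the same way were highest there. Tenocyte-like cells were highest for 10, where 9.7% of all genes ranked were. Smooth muscle-like and Schwann-like cells were highest for 5 members each, against 10.5% and 18.9% of all genes, satellite-like cells for 2 (13.5%) and NK-like cells for 1, Adamts14 (13.1%). Macrophage or monocyte-like, T-like and B-like cells were highest for 0, against 9.46%, 5.06% and 8.26% of all genes. In diaphragm FAP-like and T-like cells alone had 50 cells, and 32 of 34 members were highest in FAP-like cells, against 64.3% of all genes ranked. Summed over the family, MMPs reached 1214 CPM in FAP-like cells of quadriceps and 1431 CPM in those of diaphragm, against 66.1 and 54.5 CPM in smooth muscle-like cells. ADAMTS proteases summed to 1430 and 1199 CPM in FAP-like cells and to 362 and 780 CPM in smooth muscle-like cells.

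**Figure D1:**
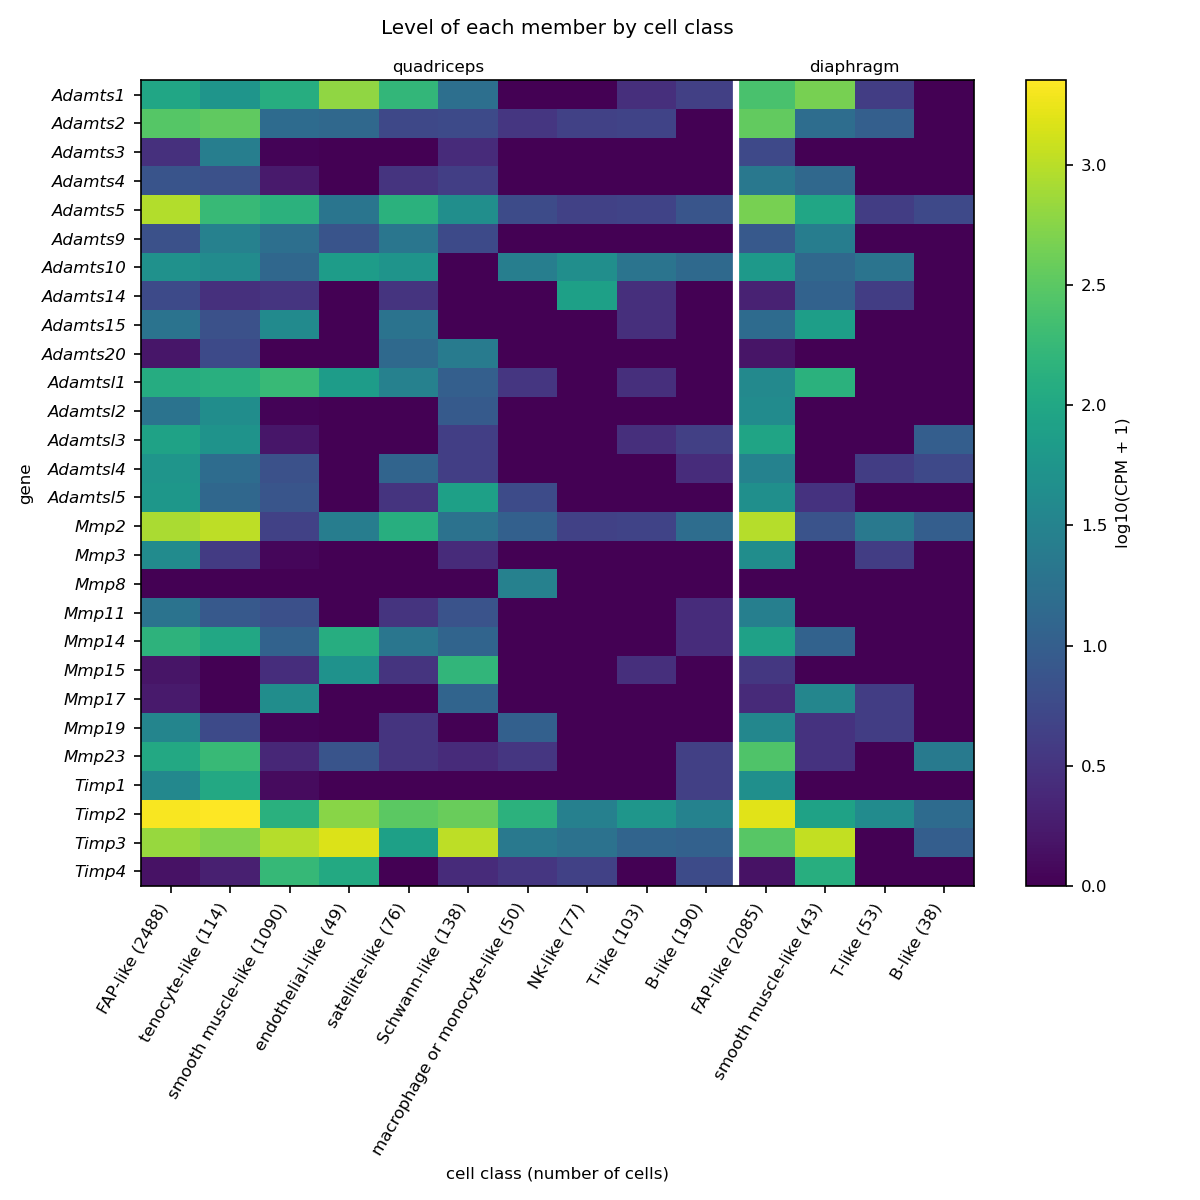
Level of the 28 members that reached 20 CPM, as log10(CPM + 1), in the classes of quadriceps (left of the white line) and diaphragm (right), with cell numbers in brackets. Timp2, Mmp2 and Adamts5 are bright in the FAP-like columns, Timp4 in smooth muscle-like and endothelial-like cells, Mmp15 in Schwann-like cells and Mmp8 in macrophage or monocyte-like cells, while the 9 neutrophil-like cells, where Mmp8 was higher, are not drawn.

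The inhibitors divided by cell class. Timp2, which binds Mmp14 and takes part in the activation of Mmp2, and whose gene overlaps Cep295nl on the same strand, stood at 2099 CPM (2081 to 2117) in quadriceps FAP-like cells, 2250 CPM (2161 to 2343) in tenocyte-like cells and 135 CPM (129 to 141) in smooth muscle-like cells. In diaphragm it stood at 1593 CPM (1578 to 1609) in FAP-like and 83.9 CPM (59.9 to 114) in smooth muscle-like cells. Its level in Schwann-like cells was 381 CPM (335 to 432), where free FAP RNA alone could give 90.8 CPM. Timp2 was thus high in stromal cells and lower in each other class of at least 50 cells. Timp3 had another order. It was at 962 CPM (946 to 978) in quadriceps smooth muscle-like, 1052 CPM (974 to 1135) in Schwann-like and 675 CPM (665 to 685) in FAP-like cells. The 49 endothelial-like cells had 1501 CPM of Timp3 (1315 to 1705), above the interval of each class named here. In diaphragm Timp3 was at 1114 CPM (1021 to 1212) in smooth muscle-like and 306 CPM (300 to 313) in FAP-like cells.

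Timp4, the most tissue-restricted TIMP, was close to absent from FAP-like cells, with 12 UMIs in each library (0.468 and 0.47 CPM). Quadriceps smooth muscle-like cells held 2566 of its 3356 UMIs in that library, at 174 CPM (167 to 181), and endothelial-like cells reached 108 CPM (63 to 173). The 43 smooth muscle-like cells of diaphragm had 124 CPM (94.2 to 160). Timp1, an inducible secreted inhibitor, was at 35.2 CPM (32.9 to 37.6) in FAP-like and 106 CPM (87.4 to 128) in tenocyte-like cells of quadriceps, with 4 UMIs in 1090 smooth muscle-like cells. It had 0 UMIs in endothelial-like, satellite-like and Schwann-like cells, which allows up to 19.1, 6.62 and 4.73 CPM.

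As shares of all TIMP UMIs, with Clopper-Pearson intervals, Timp2 made up 74.7% (74.4 to 75) in FAP-like cells of quadriceps and 81.9% (81.6 to 82.2) in those of diaphragm. In smooth muscle-like cells Timp3 made up 75.7% (75.1 to 76.3) and 84.3% (81.2 to 87), and Timp4 13.7% (13.2 to 14.2) and 9.37% (7.21 to 11.9). The Timp2 majority of FAP-like cells and the Timp3 majority of smooth muscle-like cells were present in both muscles. Timp3 also led in Schwann-like cells at 73.3% (70.3 to 76.2) and in endothelial-like cells at 68.8% (63.6 to 73.7).

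**Figure D2:**
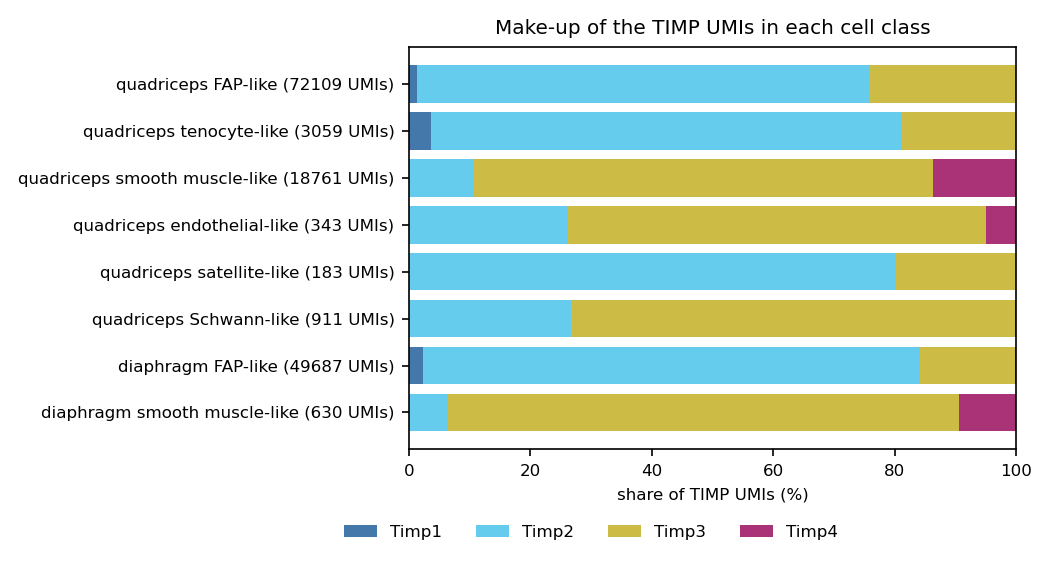
Share of each TIMP among the TIMP UMIs of a class, for classes with at least 100 TIMP UMIs (number in brackets), with bars summing to 100%. Timp2 fills most of the FAP-like, tenocyte-like and satellite-like bars, Timp3 most of the smooth muscle-like, endothelial-like and Schwann-like bars, and Timp4 is visible in smooth muscle-like and endothelial-like cells.

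Among the secreted MMPs, Mmp2 was at 854 CPM (842 to 865) in quadriceps and 951 CPM (939 to 963) in diaphragm FAP-like cells, and at 1039 CPM (979 to 1103) in tenocyte-like cells. Smooth muscle-like cells had 3.39 CPM (2.51 to 4.46) and 6.29 CPM (1.3 to 18.4), within what free FAP RNA could give (7.04 and 7.21 CPM). Satellite-like cells, the stem cells of the fibre, had 124 CPM (93.3 to 160) against 12.9 CPM from free RNA by the marker estimate above. Mmp3 (stromelysin) was at 40.6 and 43 CPM in FAP-like cells and had 0.135 CPM in quadriceps smooth muscle-like cells. Mmp8, the collagenase of neutrophils, reached 28.8 CPM (14.9 to 50.4) in macrophage or monocyte-like cells from 12 UMIs, and had 0 UMIs in FAP-like cells of both libraries. The 9 neutrophil-like cells of quadriceps, too few to be ranked, had 302 CPM (121 to 622) from 7 UMIs.

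The membrane-bound MMPs differed in place. Mmp14 was at 147 CPM (143 to 152) in quadriceps FAP-like, 100 CPM (82.2 to 121) in tenocyte-like and 121 CPM (72.7 to 189) in endothelial-like cells, the last interval reaching both others, and at 10.3 CPM (8.72 to 12.1) in smooth muscle-like cells. Mmp15 was at 158 CPM (128 to 192) in Schwann-like cells, from 100 of its 199 quadriceps UMIs, and at 0.546 CPM (0.298 to 0.915) in FAP-like cells. Mmp17 was at 42.9 CPM (39.6 to 46.3) in quadriceps and 33.6 CPM (19.2 to 54.5) in diaphragm smooth muscle-like cells, and at 0.74 and 1.53 CPM in FAP-like cells. Each of these 3 genes thus had a different class with its highest level in quadriceps. Mmp23, an MMP that lacks the hemopexin domain of most others, was at 178 CPM (154 to 205) in tenocyte-like and 105 CPM (101 to 109) in FAP-like cells of quadriceps.

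Adamts5 and Adamts2 led the ADAMTS proteases in FAP-like cells. Adamts5 was at 920 CPM (908 to 932) in quadriceps and 459 CPM (451 to 468) in diaphragm FAP-like cells, and at 181 CPM (156 to 209), 141 CPM (135 to 147) and 139 CPM (107 to 178) in tenocyte-like, smooth muscle-like and satellite-like cells of quadriceps. The last 2 do not differ beyond counting error. Adamts2 was at 289 CPM (283 to 296) and 356 CPM (349 to 364) in FAP-like cells of the muscles and at 344 CPM (309 to 381) in tenocyte-like cells of quadriceps. Adamts3, another procollagen protease, was at 26.5 CPM (17.6 to 38.3) in tenocyte-like and 1.95 CPM (1.45 to 2.57) in FAP-like cells of quadriceps, and at 4.54 CPM (3.75 to 5.45) in FAP-like cells of diaphragm. Adamts14 was at 79.1 CPM (50.1 to 119) in NK-like cells and 4.68 CPM (3.88 to 5.59) in quadriceps FAP-like cells. Adamts1 was at 166 CPM (130 to 207) in satellite-like and 123 CPM (118 to 129) in smooth muscle-like cells of quadriceps, and the endothelial-like cells, which were too few to be ranked, had 623 CPM (506 to 760). Immediate early genes, described below, summed to 16118 CPM in the satellite-like, 3910 CPM in the smooth muscle-like and 2315 CPM in the endothelial-like cells, and their part in these levels was not tested.

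Set against FAP-like cells of quadriceps, smooth muscle-like cells had 5 of 25 members past 2-fold higher and 17 past 2-fold lower, where 11.6% of 9960 genes were higher and 27.3% were lower. All 22 lay on the same side of 0 in diaphragm, where 43 smooth muscle-like cells were present. The same share over all genes past 2-fold was not worked out, so this is not read as particular to the members. The 5 higher members were Timp4, Mmp17, Adamts8, Adamts9 and Adamts15, with log2 differences of 6.90, 4.66, 3.08, 1.27 and 1.07 on the log2(CPM + 1) scale used throughout. Adamts8 and Adamts15, neighbours on chromosome 9 at chr9:30942562-30963838 and chr9:30899155-30922452, were both in this set. Adamts8 was at 13.3 CPM (11.5 to 15.3) in quadriceps and 77.6 CPM (54.6 to 107) in diaphragm smooth muscle-like cells, and Adamts15 at 38.9 CPM (35.8 to 42.2) and 75.5 CPM (52.9 to 105). Mmp2 had the largest difference in the other direction, with a log2 difference of -7.61 in quadriceps and -7.03 in diaphragm. The mitochondrial shares given above moved with this comparison, and their part in it was not tested.

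FAP-like cells of the 2 muscles were compared for the 25 members with a mean of at least 5 CPM. Past 2-fold higher in diaphragm were 5 members, where 2.69% of 9930 genes were, and past 2-fold higher in quadriceps were 5, where 2.68% were. The median log2 difference (diaphragm over quadriceps) was 0.08 over the 25 members and -0.10 over all genes compared. The members that differed included proteases, ADAMTS-like proteins and 1 inhibitor.

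Mmp23 was at 105 CPM (101 to 109) in quadriceps and 269 CPM (262 to 275) in diaphragm FAP-like cells, a log2 difference of 1.35. Mmp16, a membrane-bound MMP, was at 4.64 CPM (3.84 to 5.55) and 17 CPM (15.4 to 18.7), a log2 difference of 1.67. Adamtsl2, which binds fibrillin-1 and latent TGF-beta binding protein, was at 18 CPM (16.4 to 19.7) and 40.7 CPM (38.3 to 43.3), a log2 difference of 1.13. Adamts1 was at 96.6 CPM (92.8 to 100) and 243 CPM (237 to 250), a log2 difference of 1.33. Adamts4 was at 6.51 CPM (5.56 to 7.57) and 21.3 CPM (19.5 to 23.2), a log2 difference of 1.57. The counting intervals of these 5 did not overlap, but the 5 were picked by fold, so this adds no support. Those of Mmp2, at 854 CPM (842 to 865) and 951 CPM (939 to 963), did not overlap either.

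In the other direction, Timp3 was at 675 CPM (665 to 685) in quadriceps and 306 CPM (300 to 313) in diaphragm, a log2 difference of -1.14. Adamtsl1 was at 119 CPM (115 to 123) and 37.4 CPM (35.1 to 39.9), a log2 difference of -1.64. It overlaps Sh3gl2 on the same strand, and the effect of the overlap on its counts was not tested. Adamts16 was at 15.9 CPM (14.4 to 17.5) and 3.8 CPM (3.08 to 4.63), a log2 difference of -1.81, and Mmp27 at 9.59 CPM (8.42 to 10.9) and 2.39 CPM (1.83 to 3.07), a log2 difference of -1.64. Adamts5 sat on the threshold, with 920 and 459 CPM and a ratio of 0.499 (0.488 to 0.51), and was past 2-fold in 4 of 11 alternative settings. Adamts1 and Adamts5 are neighbours at chr16:85793827-85803113 and chr16:85856173-85901828, and differed in opposite directions.

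Mmp2, Timp2 and Mmp14 differed by less than 2-fold between the muscles. Mmp2 differed by 0.16 and Timp2 by -0.40 on the log2 scale. Mmp14 was at 147 and 82.2 CPM, a log2 difference of -0.83 that stayed under 2-fold in each of the 11 alternatives. Timp1 was at 35.2 and 45.2 CPM (log2 difference 0.35), and Timp4 was too low to be compared. Adamts12, an ADAMTS that cuts cartilage oligomeric matrix protein, was at 15.2 and 7.55 CPM. Its CPM ratio was 0.497 (0.416 to 0.592), and with the pseudocount of 1 CPM the log2 difference was -0.92, short of the threshold.

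**Figure D3:**
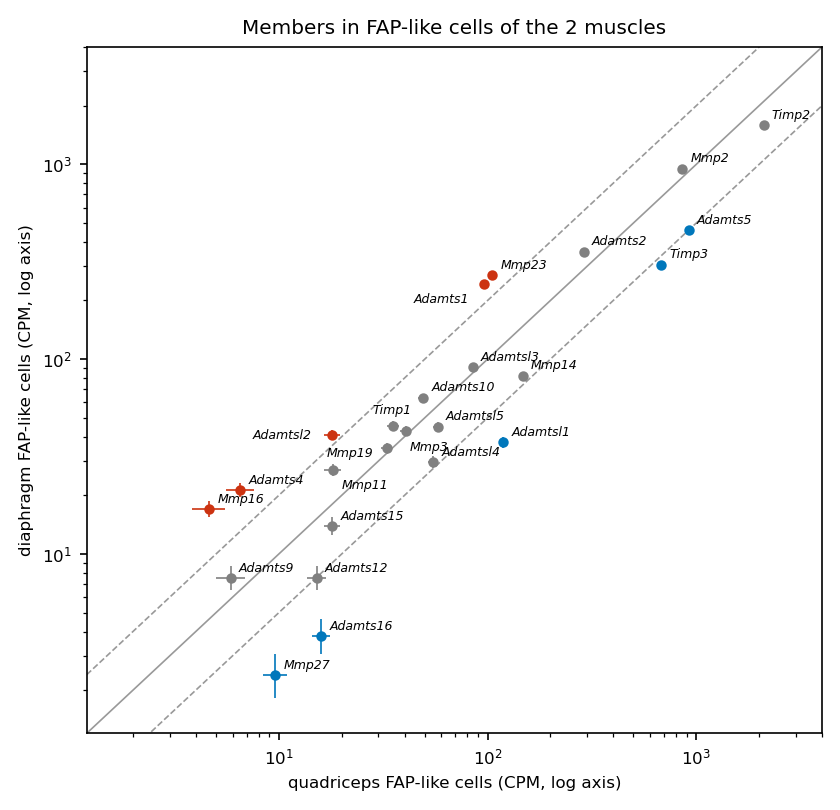
Level of the 25 compared members in FAP-like cells of quadriceps (x axis, CPM, log scale) and diaphragm (y axis, CPM, log scale), with 95% counting intervals as bars, equal levels as the solid line and 2-fold as the dashed lines. Red members were past 2-fold higher in diaphragm (5) and blue members past 2-fold higher in quadriceps (5), while Mmp2 and Timp2 lie between the dashed lines.

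Of the 10 differences, 5 were past 2-fold on both sides of the FAP-like split described below (Adamts1, Adamts4, Adamtsl1, Mmp16 and Timp3). The sides are parts of the cells that gave the 10, and the split was relative within each library. The share over all genes past 2-fold was not worked out. Adamts1 differed by 1.50 in FBN1-side and 1.16 in LUM-side cells, Timp3 by -1.21 and -1.03, and Adamtsl1 by -1.56 and -1.76. The others were past 2-fold on 1 side. Adamts5 differed by -1.10 and -0.83, Adamts16 by -1.93 and -0.73, Mmp23 by 0.96 and 2.11, Adamtsl2 by 2.30 and 0.63, and Mmp27 by -2.32 and -0.16.

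The muscles also differed in immediate early and heat shock genes, which respond within minutes to hours to stimulation and stress. The 13 immediate early genes (Fos, Jun, Egr1 and others) summed to 2557 CPM in quadriceps and 15786 CPM in diaphragm FAP-like cells, and the 5 heat shock genes to 2165 and 10932 CPM. All 13 and all 5 were past 2-fold higher in diaphragm. The 10 muscle fibre genes summed to 15.5 and 33.5 CPM. Members were therefore also read in FAP-like cells below and above the median immediate early share of all FAP-like cells (0.328% of a cell's UMIs), which placed 2014 quadriceps and 272 diaphragm cells below it.

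Adamts1 and Adamts4 moved with that share within each muscle. Adamts1 was at 79.5 CPM in quadriceps cells below the median and 164 CPM above it, and at 105 and 262 CPM in diaphragm. Adamts4 was at 5.03 and 12.4 CPM in quadriceps and 8.45 and 23 CPM in diaphragm. In cells below the median the log2 difference between the muscles was 0.39 for Adamts1 and 0.65 for Adamts4, so neither stayed past 2-fold. The other 8 members stayed past 2-fold in those cells, 3 higher in diaphragm and 5 in quadriceps. Mmp23 was at 108 CPM in quadriceps and 288 CPM in diaphragm, and Adamtsl2 at 17.2 and 44.6 CPM. Mmp16 was at 4.34 and 20.3 CPM, and Adamtsl1 at 120 and 23.3 CPM. Of 9979 genes compared in those cells, 316 were past 2-fold higher in quadriceps and fewer in diaphragm. The 10 were picked by fold in all FAP-like cells, and 2014 of the 2488 quadriceps cells lay below the median. Staying past 2-fold there is thus partly built in and adds no support. In cells above the median 6 of the 10 were past 2-fold. The exceptions were Adamts1 (0.67), Adamts4 (0.84), Adamtsl2 at 21.1 and 40.2 CPM (0.90) and Adamts5 at 707 and 466 CPM (-0.60). Timp3 (-1.01) lay on the threshold. Of the 6, Mmp27 at 6.38 and 2.43 CPM fell under the filter of a mean of 5 CPM. With the filter, 2 members were higher in diaphragm and 3 in quadriceps. Under that filter, 201 of 9931 genes were higher in diaphragm and 244 in quadriceps. Mmp3, whose promoter holds the AP-1 letters, differed by 0.08 between the muscles, and no promoter was matched for Adamts4. The part of the AP-1 letters in the differences between the muscles was not tested.

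**Figure D4:**
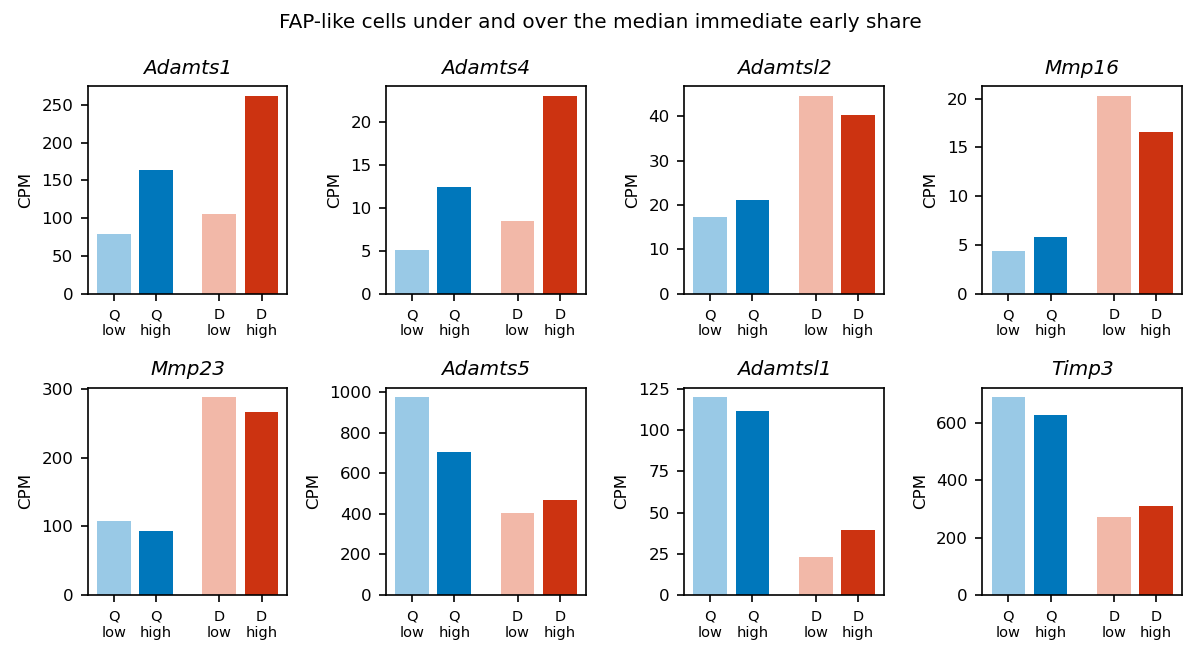
Level (CPM, linear axes from 0) of 8 members in FAP-like cells of quadriceps (Q, blue) and diaphragm (D, red) below (low, pale) and above (high, dark) the median immediate early share. Adamts1 and Adamts4 are higher in the dark bar of each muscle, while Mmp23, Adamtsl2, Mmp16, Adamtsl1 and Timp3 keep the order of the muscles in pale and dark bars.

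The share of cells with a UMI followed the levels. With every cell thinned to 1000 UMIs, Timp2 was seen in 79.4% (77.7 to 81) of quadriceps and 76% (74.1 to 77.8) of diaphragm FAP-like cells, and Mmp2 in 52.5% (50.5 to 54.5) and 57.5% (55.3 to 59.6). Adamts5 was seen in 50.9% (48.9 to 52.9) and 31.1% (29.1 to 33.1), Timp3 in 43.9% (41.9 to 45.8) and 22.8% (21 to 24.6), and Mmp23 in 8% (6.96 to 9.13) and 20.8% (19 to 22.6). Adamts1 was seen in 8.32% (7.26 to 9.47) and 18.8% (17.2 to 20.6), and Adamtsl1 in 12% (10.8 to 13.4) and 3.55% (2.8 to 4.44). Without thinning, 90.4% and 84.4% of the cells had a UMI of Adamts5, 44.3% and 84.1% of Mmp23 and 41.7% and 70.5% of Adamts1. B-like and T-like cells, used as a reference for low shares, gave at most 3.41% for Timp2 and 3.3% for Mmp2 after thinning, over 293 quadriceps and 91 diaphragm cells. They were not free of Timp2. T-like cells had 57.4 CPM (39 to 81.5) in quadriceps, where free FAP RNA could give 9.86 CPM, and 40.5 CPM (21.6 to 69.3) against 11.1 CPM in diaphragm. Quadriceps B-like cells had 29.5 CPM (17.5 to 46.6) against 18 CPM. The median depths of B-like and T-like cells were 3529 and 5533 UMIs, against 10294 and 12337 in FAP-like cells. Where they gave 0, the count allows up to 1.02% and 3.3%, and the thinned shares of Adamts4 (0.723% and 1.92%), Mmp16 (0.442% and 1.53%) and Mmp27 (0.804% and 0.288%) lay under these limits and are not read as expression in a share of cells. Adamtsl2 was seen in 1.93% and 3.55%, Adamtsl4 in 4.26% and 2.25% and Adamts16 in 1.57% and 0.288%. The diaphragm values of the last 2 lay under the limit too. These limits allow 3 counts for a 0, and the exact intervals reach 1.25% and 3.97%. The diaphragm shares of Adamtsl2 and Adamtsl1, both 3.55%, lay under the exact limit.

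The study describes FAP subtypes marked by fibrillin 1 (FBN1+) and lumican (LUM+). FAP-like cells were split in each library by 4 FBN1-side genes (Fbn1, Mfap5, Pcolce2, Loxl1) and 5 LUM-side genes (Lum, Apod, Smoc2, Col15a1, Cxcl14). Log levels were standardised within each library. Cells with a higher mean over the FBN1-side genes than over the LUM-side genes formed the FBN1 side. The sides are thus relative to each library's average, and near-even numbers follow from the cut. A side need not hold the same subtype in both muscles. The cut gave 1212 and 1276 cells in quadriceps and 1032 and 1053 in diaphragm, of which 11.9% and 18.1% lay near the split. Of 22 members with a mean of at least 5 CPM in both muscles, 1 was past 2-fold higher on the FBN1 side of both, where 1.23% of 9561 genes were, and 0 were past 2-fold higher on the LUM side, where 0.805% were. The median log2 difference (FBN1 side over LUM side) over the members was -0.06 in quadriceps and 0.01 in diaphragm.

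The member called was Adamtsl4, which binds fibrillin microfibrils. It was at 81.6 CPM on the FBN1 side and 24.9 CPM on the LUM side of quadriceps, and at 39.8 and 17.7 CPM in diaphragm, log2 differences of 1.67 and 1.13. Adamtsl5 was at 82 and 30.4 CPM in quadriceps and at 56.8 and 31.2 CPM in diaphragm, so that it was past 2-fold in quadriceps alone. Mmp23 likewise was at 149 and 55.3 CPM in quadriceps and at 291 and 241 CPM in diaphragm. Adamts16 had 399 UMIs on the FBN1 side and 8 on the LUM side of quadriceps (29.3 and 0.663 CPM), and 97 against 0 in diaphragm, at least 27.2-fold higher when 3 counts are allowed for the 0. It was too low in diaphragm for the comparison.

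The inhibitors lay toward the FBN1 side in both muscles without reaching 2-fold. Timp2 differed by 0.95 in quadriceps and 0.39 in diaphragm, Timp3 by 0.73 and 0.55, and Timp1 by 0.34 and 0.34. Adamts5 was at 1169 and 640 CPM in quadriceps and at 543 and 359 CPM in diaphragm. On the LUM side, Mmp3 was at 54.4 CPM against 28.3 CPM in quadriceps and at 58.1 against 30.3 CPM in diaphragm, log2 differences of -0.92 in both and just under the threshold. Mmp2 differed by -0.63 and -0.22, and Mmp14 by -0.06 and -0.10. Adamtsl2 was at 5.96 and 31.6 CPM in quadriceps, a log2 difference of -2.23, but at 33.3 and 49.5 CPM in diaphragm, a log2 difference of -0.56.

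**Figure D5:**
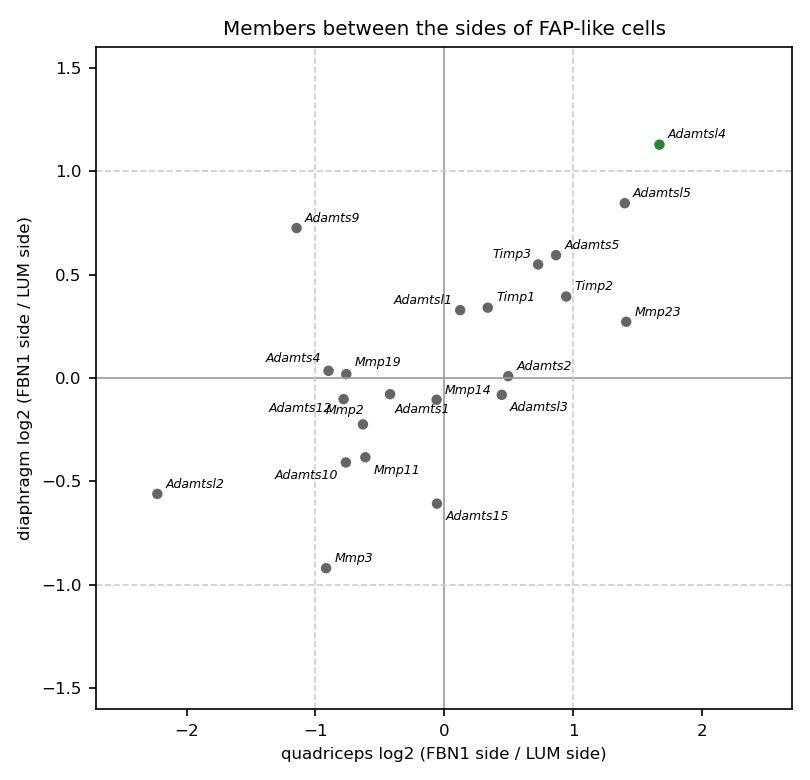
Log2 difference between FBN1-side and LUM-side FAP-like cells for the 22 compared members, in quadriceps (x axis) and diaphragm (y axis), with dashed lines at 2-fold. Adamtsl4 (green) is past 2-fold in both muscles, Mmp3 lies near -0.92 in both, and Adamts9 lies on opposite sides of 0.

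The partners of the family were read from gene lists. Of 14 activators, surface partners and clearance receptors, 13 were compared between the muscles, and 0 were past 2-fold higher in diaphragm and 1 in quadriceps: Itgb3, an integrin subunit, at 30.8 and 14.9 CPM. Of these 14 it was also the 1 past 2-fold between the sides in both muscles. It was higher on the FBN1 side, at 45.4 and 14.3 CPM in quadriceps and 21 and 7.54 CPM in diaphragm. Lrp1, the receptor that clears MMP and TIMP complexes, was at 789 and 1042 CPM in FAP-like cells, Bsg, known as an MMP inducer, at 482 and 481 CPM, and Pcsk6, a proprotein convertase, at 406 and 670 CPM.

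Among the plasminogen system genes, Serpine2, a serine protease inhibitor, was past 2-fold higher in quadriceps FAP-like cells, at 614 CPM against 211 CPM in diaphragm. Plat, the tissue-type activator, was at 204 and 326 CPM. Plaur, the urokinase receptor, was past 2-fold higher on the FBN1 side, at 16 and 3.23 CPM in quadriceps and 13.2 and 3.94 CPM in diaphragm.

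Of 21 other matrix and surface proteases, 17 were compared, with 1 past 2-fold higher in diaphragm and 2 in quadriceps. Htra3, a secreted serine protease, was at 693 CPM in quadriceps and 1572 CPM in diaphragm, and the surface peptidases Dpp4 and Mme were at 218 and 62.2 CPM and at 82.3 and 20.9 CPM. Dpp4 and Mme marked opposite sides of the split: Dpp4 was at 380 CPM on the FBN1 side and 35.9 CPM on the LUM side of quadriceps (101 and 15.7 in diaphragm), and Mme at 29 and 142 CPM (11.2 and 32.4 in diaphragm). The lysosomal cathepsins Ctsl and Ctsb were at 1412 and 1626 CPM and at 674 and 565 CPM in the FAP-like cells of quadriceps and diaphragm.

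Of 13 substrates and papilin, 9 were compared, with 1 past 2-fold higher in diaphragm and 2 in quadriceps. Fn1 (fibronectin) was at 1928 and 946 CPM, Comp, a substrate of ADAMTS7 and ADAMTS12, at 67.8 and 22.2 CPM, and Fbn2, a microfibril protein, at 1.44 and 11.4 CPM. Fn1 was also past 2-fold higher on the FBN1 side of both muscles, at 3084 and 626 CPM and at 1401 and 403 CPM. Fbn1, itself one of the genes that set the split, was at 1576 and 1004 CPM, and Nid1, a basement membrane linker, at 1293 and 1160 CPM. Versican (Vcan), the proteoglycan cut by Adamts1, Adamts4 and Adamts5, was at 323 and 178 CPM and did not reach 2-fold.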

How the data were processed

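Per the labels and the study's methods, cells were captured with a droplet 3′ kit and reads were aligned to mm10 (GRCm38) with Cell Ranger 3.0.0, and Seurat is named among the tools. The authors deposited raw counts of UMIs per gene and barcode, with 1 library per tissue. Barcodes with at least 1000 UMIs were kept, with no mitochondrial limit, since a limit of 5% removes nearly all smooth muscle-like cells. Classes were set from 15 marker lists, and the thresholds were set after marker counts were seen. No doublet caller was run, and barcodes with markers of several classes were left out. UMIs were summed per class and scaled to CPM. Log2 differences used a pseudocount of 1 CPM, and genes with a mean of at least 5 CPM were compared, with 2-fold as the limit. Intervals are exact at 95%, while the limits given for a count of 0 allow 3 counts. The depth per library is given with the cell counts above. Members, lists and alternatives were chosen with earlier results of these data known. Named were all members past 2-fold (up to 10 per direction), Timp1 to Timp4, Mmp2, Mmp14 and Adamts5, members reaching 20 CPM for levels, and list genes past 2-fold or among the 3 of highest level. 1 list gene is not reported here. Levels of other members, the promoters and the neighbours were chosen after their values were seen. The 15 alternatives changed the barcode and class limits, scaling, pseudocount, filter, cell subset, split or thinning, and 1 more was added after the data were seen. Code was tested on simulated data. Python 3.11.15, numpy 2.4.6, scipy 1.17.1, pandas 2.3.3 and matplotlib 3.10.9 were used.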

Additional observations from a re-analysis of the deposited data

Results flagged for a closer look

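Adamts9 lay on opposite sides of 0 in the 2 muscles when FBN1-side and LUM-side FAP-like cells, set within each library, were compared. Its log2 difference (FBN1 side over LUM side) was -1.15 in quadriceps, from 46 and 105 UMIs, and 0.73 in diaphragm, from 131 and 62 UMIs. The difference between the muscles was not tested.

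Signal was also present in classes too small to enter the comparisons. Mmp9, the gelatinase of neutrophils, had 32 of its 45 quadriceps UMIs in 9 neutrophil-like cells, 7 of which had a UMI (1381 CPM, 944 to 1949), and 12 of its 20 diaphragm UMIs in 2 neutrophil-like cells. Timp4 had 59 of its 77 diaphragm UMIs in the 43 smooth muscle-like cells, 20 of which had a UMI.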

How the results depend on the processing

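Alternatives were run for 16 members, and 15 kept their direction between the muscles under all 11. Timp4, at 0.00, did not (range -0.14 to 0.19). All 11 reran the same 2 libraries, and a change of pseudocount cannot change a direction. Of the 16 members, 10 had been picked by fold, so the kept directions add no support. The share over all genes was not worked out. Against 5 members higher in each muscle, the count higher in diaphragm became 2 at a mean of at least 50 CPM, 9 with no filter and 3 (without Adamts1 and Adamts4) in FAP-like cells of low immediate early share. In FAP-like cells of high share, a setting chosen after the data were seen, the counts were 2 higher in diaphragm (without Adamts1, Adamts4 and Adamtsl2) and 3 in quadriceps (without Adamts5, and without Mmp27, which fell under the filter). The count higher in quadriceps became 3 with a pseudocount of 5 CPM and 3 at a mean of at least 50 CPM, and over all genes the 50 CPM filter gave 97 higher and 64 lower in diaphragm and no filter 423 and 472. Adamts5 ranged from -1.27 to -0.60, and Adamtsl2 from 0.84 to 1.57. Between the sides, the 1 member of the FBN1 side became 2 with at most 5% mitochondrial UMIs (Adamtsl5 added). The count became 3 with no filter, 3 in the outer parts of the split, 0 with a pseudocount of 5 CPM and 0 at 50 CPM. The LUM side went from 0 to 1 (Mmp3) with the mitochondrial limit and to 1 in the outer parts. With the mitochondrial limit 28 of 30 members ranked were highest in quadriceps FAP-like cells in place of 12 of 35, but 2 classes alone kept 50 cells and 61.7% of all genes were highest there. The median over all genes compared, -0.10, was 0.00 after median ratio scaling. No paired analysis was possible because each muscle had 1 library. Levels near 1 CPM, and classes under 50 cells, are limited by depth.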
